A study of Mus musculus with 18 samples.

Results

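The miR-181 family was followed through resting and LPS-activated BV-2 microglia, an immortalized mouse microglial cell line, by small RNA sequencing. All rows of the deposited data whose names belong to mir-181a, mir-181b, mir-181c or mir-181d were taken, 6 hairpins (written mir) and 10 mature arms (written miR), or 16 of 2134 rows. The hairpins are mmu-mir-181a-1, mmu-mir-181a-2, mmu-mir-181b-1, mmu-mir-181b-2, mmu-mir-181c and mmu-mir-181d, and the species prefix is left out from here on. The family was selected on the difference of its hairpin mir-181b-1 between CBD-treated and control cells, so the values of CBD against control are given as a description with no test. There were 18 samples, 3 per group, in 6 groups. Ctrl cells received neither a cannabinoid nor LPS. The LPS group received lipopolysaccharide, a bacterial cell wall component, at 100 ng/ml. Cannabidiol (CBD) or tetrahydrocannabinol (THC), both cannabinoids of the cannabis plant, was given alone at 10 μM. By the study's methods, cells of the CBD+LPS and THC+LPS groups were exposed to 10 μM of the cannabinoid for 2 h and then to 100 ng/ml LPS for 4 h more. All groups share this one cell line, the sources used here do not say whether control cells received the ethanol in which the cannabinoids were dissolved, and no label says that the samples of a group were separate cultures. The p-values therefore measure the spread between these samples, which may be technical.

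MicroRNAs are cut from hairpin precursors, and each hairpin can give a mature arm from its 5′ side (5p) and another from its 3′ side (3p). The mature strand is loaded into the silencing complex and pairs with messenger RNAs mainly through its seed, and the other strand is mostly degraded. The miR-181 miRNAs are best known from the immune system, where miR-181a tunes the sensitivity of the T cell receptor and takes part in lymphocyte development, and they are also found in cells of the brain.

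The family comes from 3 pairs of neighbouring genes (GENCODE M21, mouse build GRCm38). Mir181a-1 (chr1:137966455-137966541, plus strand) and Mir181b-1 (chr1:137966639-137966718, plus strand) lie in an intron of the non-coding gene Gm4258, and Mir181b-1 also lies in an exon of the non-coding gene A430106G13Rik. Mir181a-2 (chr2:38852735-38852810) and Mir181b-2 (chr2:38853830-38853918) lie on the plus strand, opposite to the protein-coding gene Nr6a1, within its intron. Mir181c (chr8:84178873-84178961) and Mir181d (chr8:84178716-84178787) lie on the minus strand in an intron of Nanos3. RefSeq sequences (GRCm38.p6) were found for 10 of the 10 mature arms and 5 of the 6 hairpins. The 4 mature 5p arms are shown because they carry most of the family's reads and share their seed, bases 2 to 8, given here in capitals.
miR-181a-5p: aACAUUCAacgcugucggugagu
miR-181b-5p: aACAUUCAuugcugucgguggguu
miR-181c-5p: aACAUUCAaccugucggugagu
miR-181d-5p: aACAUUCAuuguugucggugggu
miR-181c-5p lies at an edit distance of 1 from miR-181a-5p (a base is missing after the first 10), and miR-181d-5p lies at an edit distance of 2 from miR-181b-5p. The 3p arms of the chromosome 1 pair are shown because the LPS comparisons below turn on them, and they do not share a seed.
miR-181a-1-3p: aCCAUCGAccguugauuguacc
miR-181b-1-3p: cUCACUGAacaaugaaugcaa
The hairpins that both release miR-181b-5p are shown with their mature arms in capitals, since the results turn on the difference between them.
mir-181b-1: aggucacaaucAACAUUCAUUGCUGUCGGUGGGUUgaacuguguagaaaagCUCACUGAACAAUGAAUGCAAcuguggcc
mir-181b-2: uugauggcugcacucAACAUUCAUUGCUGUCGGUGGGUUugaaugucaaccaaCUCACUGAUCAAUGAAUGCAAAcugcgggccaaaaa
The 5p arm is the same in both, so a read of miR-181b-5p cannot be assigned to either gene. The same holds for miR-181a-5p and its hairpins mir-181a-1 and mir-181a-2. Loops, flanks and 3p arms differ between the hairpins. How a read was counted on a hairpin rather than on a mature row is not given in the sources used here.

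Values are CPM, read counts expressed relative to the size of their library after a TMM adjustment, and whole reads could be recovered from them. The libraries held 442718 to 1057147 reads, and 3 reads, the smallest level read as present, correspond to 2.98 to 6.38 CPM, which covers counting error alone. The labels number the samples 22 to 39. Samples 22 to 27, 1 per group, lay below all the rest for miR-181a-5p (12026 to 21865 against 22853 to 52218 CPM), so some results that rest on them are also given from samples 28 to 39. The labels name no batch. Between 0.151% and 4.55% of a library's reads lay on a group of 3 abundant hairpins (mir-6236, mir-6240, mir-6243), a share that also moved between libraries. Markers of blood-lineage cells were present (miR-142-5p at 7254 to 12346 CPM, miR-223-3p at 48.5 to 178 CPM), while the neuronal miR-124-3p, the red cell miR-451a and the liver miR-122-5p had 4, 12 and 5 reads over all samples. miR-128-3p, fixed as a neuronal marker, stood at 409 to 651 CPM. Since CPM is a share of a library, less of a miRNA per cell and more of other small RNAs cannot be told apart.

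The family accounted for 4.02% of all reads, and miR-181a-5p alone for 86.6% of the family's 549696 reads. miR-181a-5p ranked 7th and miR-181b-5p 34th among the 1279 mature rows by reads. miR-181b-5p gave 9.82% of the family's reads, and miR-181c-5p and miR-181d-5p gave 0.234% and 0.0662%. The 5p arms were the more abundant (364 against 124 reads for miR-181d, the closest pair), and of the 3p arms miR-181a-1-3p, with 1.39% of the family's reads, was the most abundant, the next being miR-181b-1-3p with 0.0837%. miR-181a-2-3p had 23 reads and miR-181b-2-3p 10 reads over the 18 samples, and these arms were at 0 in 6 and 12 samples. The hairpins mir-181a-1, mir-181a-2 and mir-181b-1 had similar totals, 2953, 2668 and 2767 reads, whereas mir-181b-2 had 875, mir-181d 241 and mir-181c 215.

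The level of miR-181a-5p, the dominant product of the family, varied more between the samples of each group than between the group means. The control samples (22, 28 and 34) stood at 21865, 45953 and 22853 CPM and the LPS samples at 14622, 49125 and 45646 CPM. Those given CBD stood at 17662, 36172 and 34924 CPM and those given THC at 12026, 45012 and 44585 CPM. With LPS added, the CBD+LPS samples stood at 14616, 49005 and 52218 CPM and the THC+LPS samples at 18680, 48045 and 51746 CPM. The sample numbered 22 to 27 was the lowest of its group in all 6 groups, and in control sample 34 lay close to it. The group means ran from 29586 ± 10345 CPM (SD, n = 3) in CBD to 39490 ± 18117 in THC+LPS, and these groups, like all those between them, overlapped. miR-181c-5p, which differs from it by a single missing base, followed it closely, with a Pearson r of 0.95 and a Spearman rho of 0.89 of the log2(CPM + 1) values over the 18 samples. miR-181c-5p read 53.2, 116 and 52.4 CPM in control, 41.6, 69.5 and 50.6 with CBD and 28.2, 134 and 148 with CBD+LPS. Its level was between 0.145% and 0.325% of that of miR-181a-5p in every sample, and whether part of its reads came from miR-181a-5p was not tested.

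miR-181b-5p, which shares the seed, was far steadier. Its control samples stood at 4202, 4205 and 4108 CPM, its LPS samples at 3208, 4110 and 3684, and its THC samples at 3176, 3885 and 4209. The CBD samples stood at 3764, 5568 and 5587 CPM, the CBD+LPS samples at 3211, 4064 and 4301, and the THC+LPS samples at 3296, 3858 and 4069. CBD samples 30 and 36 were the highest of the 18 samples, and CBD sample 24 lay below every control sample, so the groups overlapped. The ratio of miR-181a-5p to miR-181b-5p accordingly ranged from 3.79 to 12.7 between libraries. miR-181d-5p was low throughout, at 15.9 to 37.6 CPM, and its groups overlapped.

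**Figure D1:**
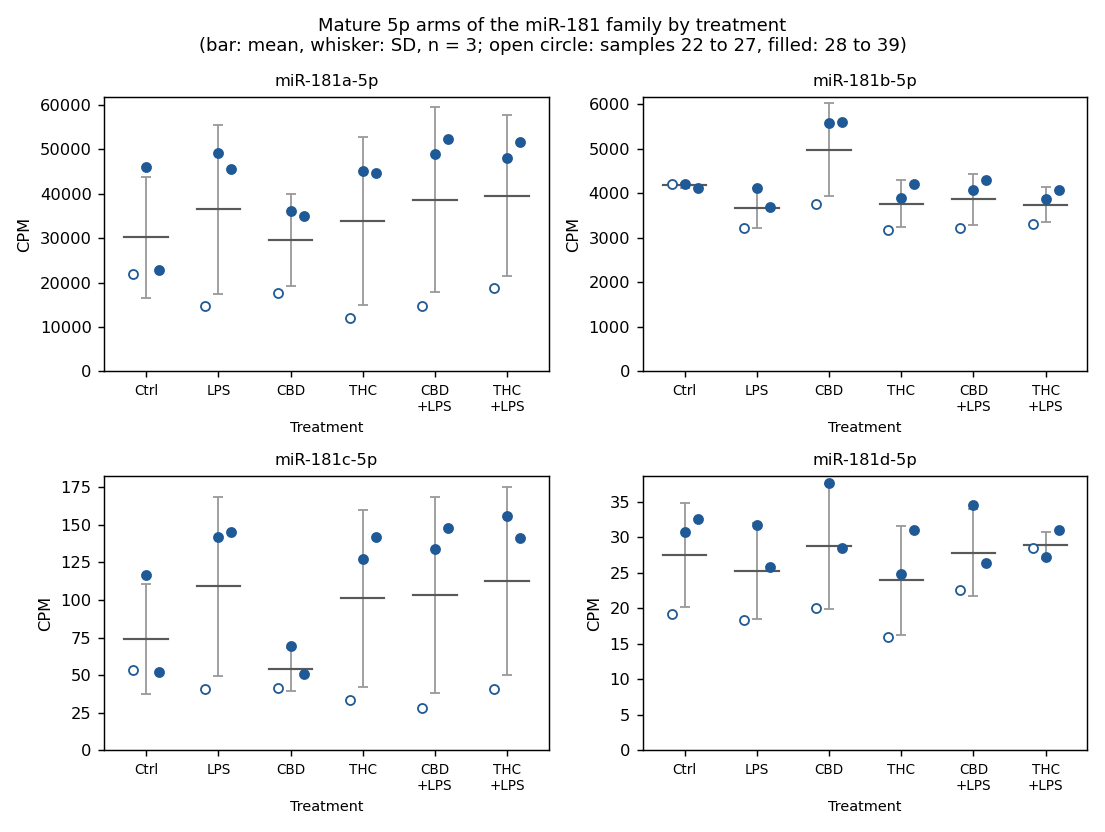
Levels of the 4 mature 5p arms (CPM, linear axes from 0) in the 6 treatment groups, each point a sample, with the group mean and SD (n = 3). For miR-181a-5p and miR-181c-5p the open points, samples 22 to 27, lie lowest in every group apart from miR-181c-5p in control, where sample 34 lies lower, and miR-181b-5p varies less, from 3176 to 5587 CPM.

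The hairpin mir-181b-1 was the row that brought the family forward. The control values were 119, 161 and 119 CPM, and those with CBD were 568, 353 and 316 CPM, in the order of the sample numbers. The CBD values all exceeded those of control, and those of each of the other 15 samples apart from CBD+LPS sample 26. The means were 412 ± 136 against 133 ± 24.1 CPM (SD, n = 3), a ratio of 3.10, and the difference was 1.59 on the log2(CPM + 1) scale. These rest on 396, 188 and 200 reads with CBD and on 56, 94 and 102 reads in control. Of the family's rows, 1 of 16 was without overlap in this direction, and over all 1363 tested rows the share was 6.9%. By size alone, 4 of the 16 rows were at least 1.5-fold higher with CBD and 3 at least 1.5-fold lower, beside 15.5% and 22.7% of all tested rows.

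In each of the other 15 rows the CBD and control samples overlapped. The upstream neighbour mir-181a-1 stood at 228 ± 19.1 CPM in control and 237 ± 69.6 in CBD. mir-181b-2, which carries the same 5p arm, stood at 65.9 ± 2.66 and 70.5 ± 20.2 CPM, and mir-181a-2 at 202 ± 7.41 and 232 ± 62.1 CPM. mir-181d stood at 12.8, 11.97 and 22.1 CPM in control and 28.7, 28.2 and 20.55 in CBD, a ratio of the means of 1.65, with 1 control sample within the CBD range. Every CBD sample of mir-181d lay above every THC sample (share over all rows not counted). The other rows past 1.5-fold higher were miR-181c-3p, at 1, 1 and 6 reads in control and 4, 8 and 2 with CBD, and miR-181a-2-3p, at 0, 0 and 1 reads against 2, 0 and 3, both near or under the limit of 3 reads. mir-181c held 2, 16 and 20 reads in control and 13, 2 and 2 with CBD. The mature miR-181b-5p differed by 0.23 on the log2(CPM + 1) scale and miR-181b-1-3p, the other arm of the mir-181b-1 hairpin, by -0.33, with overlapping samples in both. CBD samples 30 and 36 had 0.160% and 0.151% of their reads on the 3 abundant hairpins, the lowest shares among the samples, while CBD sample 24, with the highest mir-181b-1 level, had 1.67%. The part of this share in the result was not tested.

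**Figure D2:**
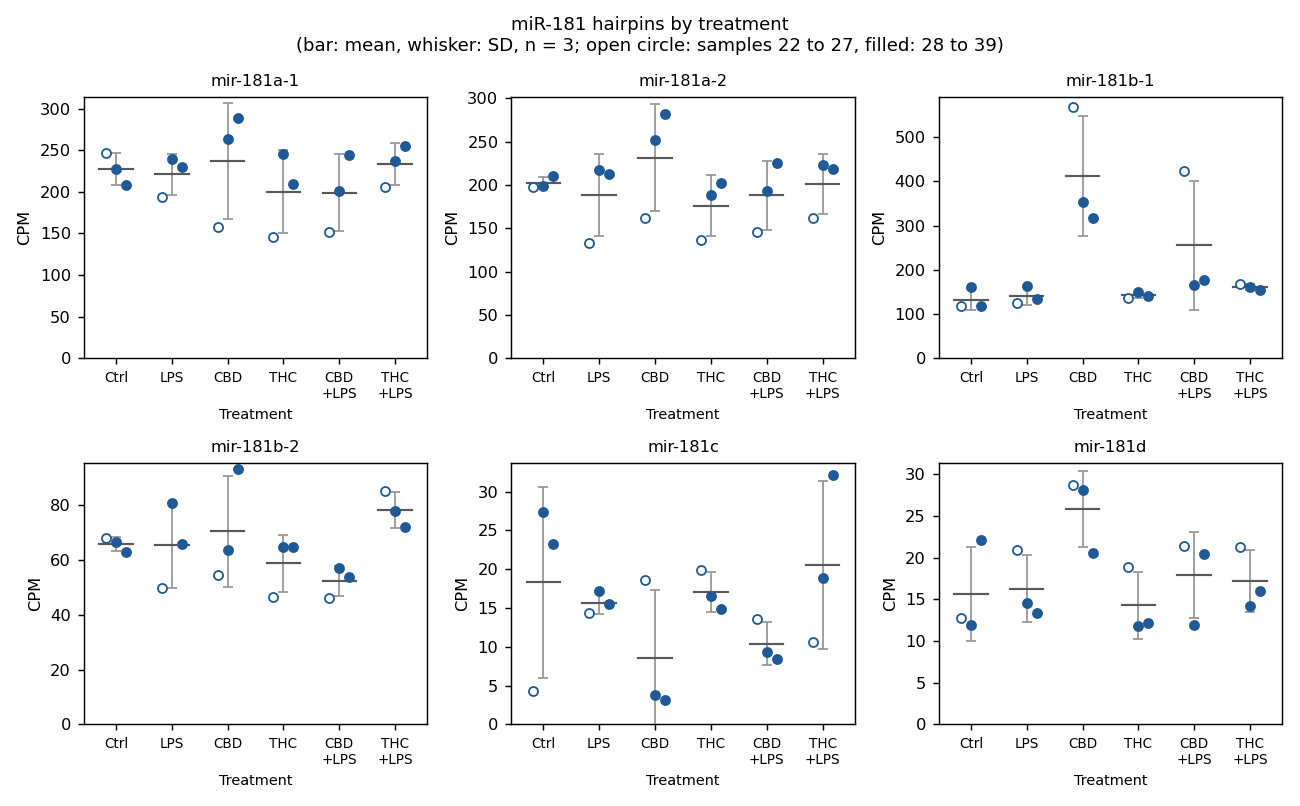
Levels of the 6 hairpins (CPM, linear axes from 0) in the 6 treatment groups, each point a sample, with the group mean and SD (n = 3, whiskers cut at 0). mir-181b-1 reaches 568, 353 and 316 CPM in the CBD samples and 424 CPM in CBD+LPS sample 26, and the other samples lie at 119 to 176 CPM.

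Within a sample, the level of the mir-181b-1 hairpin was compared with that of its mature 5p arm, a ratio that does not depend on the scaling of the library. It was 2.83%, 3.82% and 2.89% in control and 15.1%, 6.34% and 5.66% with CBD. With LPS it was 3.87%, 3.99% and 3.66%, with THC 4.32%, 3.83% and 3.37%, and with THC+LPS 5.07%, 4.17% and 3.80%. The CBD+LPS samples gave 13.2%, 4.05% and 4.10%, so that sample 26 lay with the CBD samples and samples 32 and 38 lay with the groups without CBD. The ratio of mir-181b-1 to the sister hairpin mir-181b-2 was 10.4, 5.53 and 3.39 in CBD and 9.17, 2.88 and 3.27 in CBD+LPS, against 1.75 to 2.94 in the other 12 samples. By this ratio CBD+LPS sample 38 lay above the 12 samples without CBD, next to CBD sample 36, and CBD+LPS sample 32 lay within their range. By contrast, the ratio of mir-181a-1 to mir-181a-2 stayed between 0.973 and 1.45 in all samples.

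**Figure D3:**
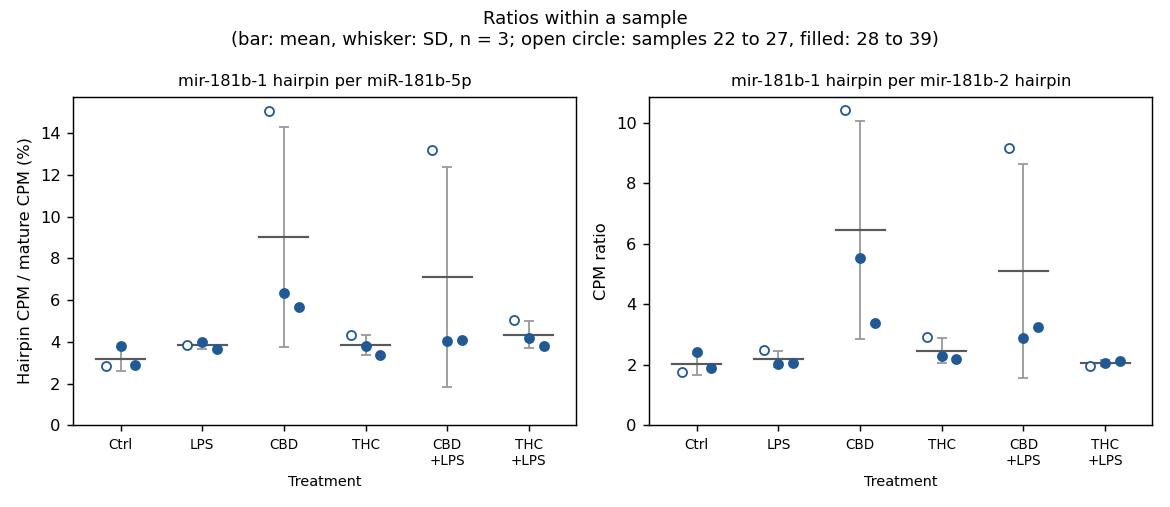
Ratio of the mir-181b-1 hairpin to miR-181b-5p (percent, left) and to the mir-181b-2 hairpin (right) within each sample, by treatment, with the group mean and SD (n = 3). CBD sample 24 and CBD+LPS sample 26 are highest in both panels, at 15.1% and 13.2% on the left.

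Whether mir-181b-1 was higher with CBD in activated cells as well was asked in CBD+LPS against LPS. The difference that selected the family used none of these samples. The family was, however, chosen with earlier results of these data known, so the comparison is not independent of the choice. The LPS samples stood at 124, 164.2 and 135 CPM and the CBD+LPS samples at 424, 164.7 and 176 CPM. Every CBD+LPS sample lay above every LPS sample, by less than 1 CPM for the closest pair. Such a separation was found for 3.45% of the tested rows. The difference was 0.72 on the log2(CPM + 1) scale (95% CI 0.07 to 1.37, standard error 0.31), and its adjusted p was 1 (limma, Benjamini-Hochberg over 1363 rows). It did not pass the criterion for a call used here, an unadjusted p no higher than 0.005 together with a change of 1.5-fold or more. It rested on sample 26. Without that sample the difference was 0.28 (adjusted p 0.995, limma), and in samples 28 to 39 it was 0.19 (adjusted p 0.862, limma). The hairpin level minus the mature miR-181b-5p level was higher by 0.65 on the log2 scale in CBD+LPS than in LPS (exact permutation test, 2-sided, p = 0.1, the smallest that 3 against 3 samples allow), by 0.08 without sample 26 and by 0.09 in samples 28 to 39.

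The 3p arm from the same hairpin was lower in CBD+LPS. miR-181b-1-3p stood at 31.4, 43.7 and 32.96 CPM in the LPS samples and at 11.3, 17.3 and 31.2 CPM in the CBD+LPS samples, all of the latter below all of the former. The same separation was seen for mir-181c, at 14.4, 17.2 and 15.4 CPM with LPS and 13.5, 9.3 and 8.4 CPM with CBD+LPS, and for miR-181d-3p. These are 3 of 16 rows, and 5.87% of all tested rows were separated in this direction. For miR-181b-1-3p, the difference was -0.92 on the log2(CPM + 1) scale (95% CI -1.69 to -0.15), with an adjusted p of 1 (limma). It missed the criterion. With each of the 18 samples left out in turn it passed in 1 case, without CBD+LPS sample 38, the closest to the LPS samples, at -1.29 (adjusted p 0.838, limma). The reads behind it were few, 24, 33 and 32 against 10, 13 and 26. miR-181b-5p, from the other side of that hairpin, differed by 0.07 (95% CI -0.32 to 0.46).

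At the criterion, 0 of 16 rows of the family were called in CBD+LPS against LPS, beside 0.22% of all tested rows. With an unadjusted p up to 0.05 there were 2 of 16, mir-181b-1 and miR-181b-1-3p, beside 3.23% of all rows. edgeR's quasi-likelihood test and DESeq2 on the recovered reads also called 0 at the criterion, with 2 and 1 rows at an unadjusted p up to 0.05. The median difference of the 16 rows was -0.08 and that of all tested rows -0.05 on the log2 scale.

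For THC, the other cannabinoid at the same dose, no row of the family met the criterion. In resting cells mir-181b-1 stood at 137, 149 and 142 CPM with THC, within the range of the control samples, a difference of 0.11 (95% CI -0.53 to 0.76). In activated cells it stood at 167, 161 and 154.7 CPM with THC+LPS, a difference from LPS of 0.20 (95% CI -0.45 to 0.85). The counts were 0 of 16 in both comparisons by limma, by edgeR's quasi-likelihood test and by DESeq2, at the criterion and also for unadjusted p up to 0.05. Of all rows, 0.44% were called at the criterion and 3.37% had an unadjusted p up to 0.05 in resting cells, and 0.22% and 2.35% in activated cells. The comparison of THC with control shares its control samples with that of CBD. miR-181b-1-3p stood at 19.5, 20.1 and 27.5 CPM with THC+LPS, below every LPS sample, with a difference of -0.66 (95% CI -1.43 to 0.11). The share of all rows so separated was not counted.

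Set directly against each other in activated cells, CBD+LPS and THC+LPS differed in 0 of 16 rows at the criterion (0.147% of all rows were called), and in 1 row for unadjusted p up to 0.05 by limma (2.64% of all rows), 1 by edgeR and 2 by DESeq2. mir-181b-1 differed by 0.52 (95% CI -0.13 to 1.17), again with sample 26 high. mir-181b-2 stood at 46.2, 57.1 and 54.0 CPM in CBD+LPS and at 85.3, 78.0 and 72.2 CPM in THC+LPS, samples that did not overlap (the share of all rows so separated was not counted). The difference was -0.58 (95% CI -1.12 to -0.03, adjusted p 1, limma). mir-181c held 12, 7 and 7 reads against 6, 16 and 28. In samples 28 to 39 its difference between these groups was -1.38, past the criterion but with an adjusted p of 0.765 (limma). The share of all rows called there was not counted. In resting cells the CBD samples of mir-181b-1 lay above all THC samples (share over all rows not counted), at a mean of 412 against 143 CPM. This is given with no test because the CBD samples took part in the choice of the family.

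LPS was compared with control first without a cannabinoid. No row of the family was called (0 of 16, beside 1.54% of all rows), and 0 reached an unadjusted p up to 0.05 (5.87% of all rows), by limma, edgeR's quasi-likelihood test or DESeq2. With an adjusted p no higher than 0.1 it was 0 of 16 as well, beside 1.03% of all rows. The difference for miR-181a-5p was 0.17 (95% CI -1.11 to 1.46), for miR-181b-5p -0.19 (95% CI -0.58 to 0.19) and for mir-181b-1 0.09 (95% CI -0.56 to 0.74), a sign that turned with RLE scaling (-0.0088), with library size alone (-0.066) and with DESeq2 (-0.0069). The control samples used here are also those by which mir-181b-1 was selected. For miR-181a-5p, with its wide interval, a change within these bounds was not detectable. These samples responded to LPS in other rows. Of 40 tested rows of miRNAs linked to Toll-like receptor signalling (miR-155, miR-146, miR-21a, miR-125, miR-132, miR-212, miR-147, miR-9, miR-223, miR-221 and miR-222), a list put together with earlier results of these data known, 11 rose and 0 fell. Among them were miR-155-3p by 4.87, miR-146a-3p by 2.28 and miR-21a-3p by 1.73 on the log2(CPM + 1) scale (adjusted p 1.66e-08, 0.0200 and 0.000111, limma). The median difference of that list was 0.37, that of the family 0.02 and that of all tested rows 0.11. Library size alone moved the median of all rows to -0.02.

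The LPS effect was then averaged over the cells without cannabinoid, with CBD and with THC, a contrast of 9 samples against 9 that is balanced over CBD and control. It called 1 of 16 rows of the family, which was lower, beside 2.05% of all rows. The row was also called by edgeR and by DESeq2, 1 of 16 in each (their shares of all rows not counted). An unadjusted p up to 0.05 was reached by 2 of 16 with limma, beside 6.97% of all rows, by 2 with edgeR and by 3 with DESeq2. With an adjusted p no higher than 0.1 there were 0 of 16, beside 1.61% of all rows. That row was miR-181b-1-3p. Without LPS it stood at 46.8, 53.0 and 38.4 CPM in control, 53.1, 24.4 and 36.4 in CBD and 51.7, 35.4 and 39.2 in THC. With LPS the median of the 9 samples was 27.5 CPM (range 11.3 to 43.7), against 39.2 CPM (range 24.4 to 53.1) without. Within THC-treated cells the samples with and without LPS did not overlap (share over all rows not counted), and over all 18 samples they overlapped. The difference was -0.72 on the log2(CPM + 1) scale (95% CI -1.17 to -0.28, standard error 0.21, adjusted p 0.157, limma). By background it was -0.35 without cannabinoid, -0.94 with CBD and -0.88 with THC. Between samples of a set of consecutive numbers (22 to 27, 28 to 33 and 34 to 39, each with 1 sample per group), it was lower with LPS in 9 of 9 pairs. The labels do not name these sets as pairs, and the share of all rows lower in 9 of 9 pairs was not counted. The row was also called with these sets as a block (adjusted p 0.122, limma), a fit added after the data were seen. The adjusted p was 0.0226 with DESeq2, 0.0514 with library size alone, 0.0701 with edgeR's expression filter, 0.0735 with the level of the 3 abundant hairpins as a covariate, 0.114 with RLE scaling, and 0.150 to 0.226 under the other alternatives that kept all samples. The call was lost, with p between 0.00508 and 0.00817 (limma), when any of 11 of the 18 samples was left out. In samples 28 to 39 the difference was -0.41 and was not called. There the row called was instead miR-181c-5p, higher by 0.75 (adjusted p 0.00883, limma), where its CBD samples and control sample 34 were low. The share of all rows called in samples 28 to 39 was not counted, so this call cannot be set against it.

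The neighbouring 3p arm differed the same way by less. miR-181a-1-3p had a median of 574 CPM without LPS (range 432 to 849.7) and of 547 CPM with LPS (range 259 to 632). The difference was -0.41 (95% CI -0.77 to -0.05, adjusted p 0.572, limma). It missed the criterion by its unadjusted p (0.0281, limma) and by its size, being under 1.5-fold. It was lower with LPS in 8 of 9 pairs, and with the sets as a block its adjusted p was 0.0543 (limma). The 5p arms differed by 0.24 (95% CI -0.50 to 0.99, higher in 7 of 9 pairs) for miR-181a-5p and by -0.18 (95% CI -0.41 to 0.04, lower in 8 of 9 pairs) for miR-181b-5p. With the sets as a block the interval of miR-181a-5p was -0.07 to 0.56 (adjusted p 0.685, limma). That of miR-181b-5p was then -0.33 to -0.04, which leaves out 0 (adjusted p 0.314, limma). Whether the 3p and 5p arms differ in this was not tested. For mir-181b-1, the difference was -0.17 (95% CI -0.55 to 0.20), the mean of a negative value in CBD-treated cells (-0.78) and positive values without cannabinoid (0.09) and with THC (0.17). The first 2 of these rest on the CBD and control samples by which the family was selected, so their opposite signs are no finding. Its level relative to miR-181b-5p differed with LPS by 0.28 without cannabinoid, by -0.43 with CBD and by 0.17 with THC on the log2 scale, given with no test for the same reason. Over the TLR-linked list the pooled effect raised 13 of 40 rows and lowered 0.

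miR-181a-1-3p, the most abundant 3p arm, read 574, 689 and 542 CPM in control, 432, 565 and 678 with CBD and 569, 826 and 849.7 with THC. It read 438, 575 and 632 CPM with LPS, 259, 457 and 547 with CBD+LPS and 323, 595 and 559 with THC+LPS. The difference with LPS was -0.14 without cannabinoid, -0.45 with CBD and -0.63 with THC, and the samples overlapped in each.

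The remaining 3p arms were close to the limit of 3 reads. miR-181c-3p, which shares its seed with miR-181a-1-3p, held 1 to 8 reads per sample and had overlapping groups in every comparison. miR-181d-3p held 2, 11 and 5 reads in control, 4, 0 and 1 with CBD and 31, 17 and 5 with THC, so that the CBD and THC samples did not overlap in CPM (share over all rows not counted). With LPS it held 7, 7 and 8 reads, with CBD+LPS 5, 4 and 6 and with THC+LPS 0, 2 and 9. It had no call in any tested comparison, and its difference between CBD+LPS and THC+LPS was 1.06 (95% CI -0.67 to 2.79). miR-181a-2-3p held 0 to 3 reads per sample and miR-181b-2-3p 0 to 4, too few to compare groups. All 16 rows reached the minimum of 10 reads over the 18 samples, miR-181b-2-3p with exactly 10.

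**Figure D4:**
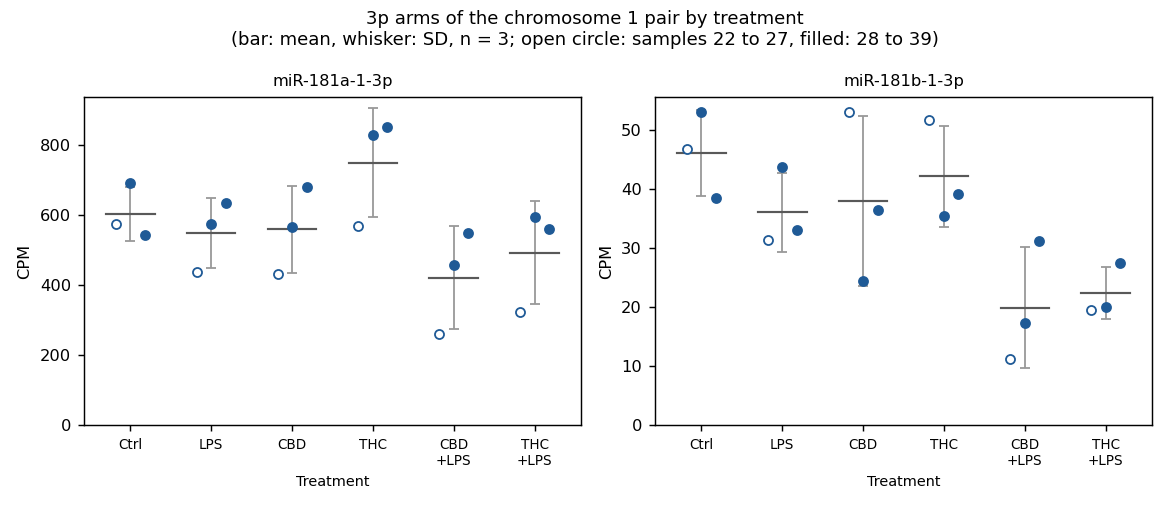
Levels of miR-181a-1-3p and miR-181b-1-3p (CPM, linear axes from 0) in the 6 treatment groups, each point a sample, with the group mean and SD (n = 3). The CBD+LPS and THC+LPS samples of miR-181b-1-3p, at 11.3 to 31.2 CPM, lie below the LPS samples, at 31.4 to 43.7 CPM.

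**Figure D5:**
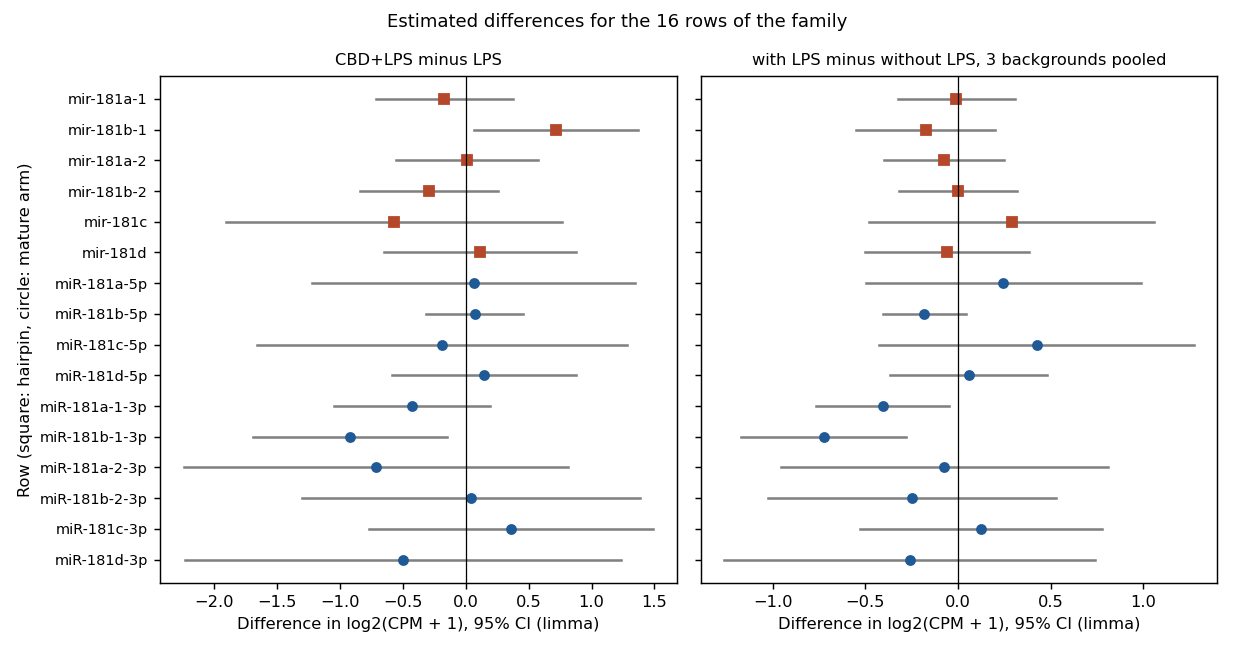
Differences in log2(CPM + 1) with 95% CI (limma) for the 16 rows, hairpins as squares and mature arms as circles, for CBD+LPS minus LPS (left) and for LPS pooled over the 3 backgrounds (right). On the left mir-181b-1 (0.72) and miR-181b-1-3p (-0.92) have intervals that leave out 0, and on the right miR-181b-1-3p (-0.72) and miR-181a-1-3p (-0.41).

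Rows outside the family whose pattern over the 18 samples was most like that of its members were looked up among 648 rows with at least 100 reads, as a description, since all rows share the same libraries. For mir-181b-1 these were mir-1931, miR-1957a, mir-3971, miR-3963 and miR-3968, with a Pearson r of 0.84, 0.84, 0.83, 0.80 and 0.79 and a Spearman rho of 0.70, 0.42, 0.64, 0.49 and 0.52. No row of the family with at least 100 reads was that close to mir-181b-1, and the nearest was mir-181d (r = 0.63). For miR-181a-5p the closest rows were miR-1843a-5p, miR-125b-5p, miR-3964, miR-328-3p and miR-1249-3p, with r between 0.97 and 0.99 and rho between 0.81 and 0.91, and miR-125b-5p ranged from 827 to 2335 CPM over the same samples.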

How the data were processed

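Small RNA of 18 BV-2 samples, 3 per group by their labels, was analysed. By the study's methods the authors mapped reads with BWA onto miRBase mouse entries (release not given in the sources used here), let a read map to several of them, counted known miRNAs and used edgeR. How reads with several mappings were counted is not given in the sources used here. The values the authors deposited are CPM with libraries scaled by TMM. For files whose sum exceeds the CPM total the deposited unit was recorded as signal, although the quantity is the same. All values were whole multiples of a single read's value within 0.01 read (100% of values), and TMM factors computed from the reads matched the deposited scaling. Rows reaching 10 reads in all entered the test (1363, all 16 rows of the family among them), which was limma 3.58.1 (trended variance) on log2(CPM + 1), 6 groups in a single model, in R 4.3.3. The criterion was an unadjusted p no higher than 0.005 together with a change of 1.5-fold or more. Shares of all rows called were counted with limma alone, not with edgeR or DESeq2. The family, its members and the lists were chosen with earlier results of these data known. Alternatives were RLE or library-size scaling, other filters and pseudocounts, edgeR 4.0.16, DESeq2 1.42.0, no trend, an adjusted p of at most 0.1, samples 28 to 39, a covariate for the summed level of 3 abundant hairpins (mir-6236, mir-6240, mir-6243), each sample left out and, added after the data were seen, a block for sets of consecutive sample numbers. Named outside the family were the 5 rows most like mir-181b-1 and miR-181a-5p, the TLR-linked list, markers, the 3 abundant hairpins and, as references, miR-103-3p (4239 to 7910 CPM) and miR-191-5p (40923 to 79263 CPM). The fit was tested on simulated data. Positions are those of GENCODE M21 and sequences those of RefSeq. The miRBase marker miR-142a is written miR-142 in the data.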

Additional observations from a re-analysis of the deposited data

How the results depend on the processing

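The counts of rows called stayed at 0 for LPS against control, THC against control and THC+LPS against LPS under every alternative tried. For CBD+LPS against LPS they ranged from 0 to 1 with 1 sample left out. For CBD+LPS against THC+LPS the count rose to 1, mir-181c, in samples 28 to 39 and with the composition covariate. Its adjusted p was 0.765 and 0.997 there (limma), and the share of all rows called under these settings was not counted. For LPS pooled over the cannabinoids it fell to 0 with an adjusted p of at most 0.1 as the threshold and ranged from 0 to 1 with 1 sample left out. In samples 28 to 39 that count was also 1, for another row (share of all rows called there not counted). The difference of mir-181b-1 between CBD and control ranged from 1.34 to 1.76 with 1 sample left out and from 1.27 to 1.60 otherwise. The level of mir-181b-1 relative to miR-181b-5p in CBD+LPS against LPS ranged from 0.08 to 0.93 with 1 sample left out, and with LPS pooled, where it averages the opposite values of samples used to select the family, it was 0.0091, and -0.068 in samples 28 to 39 and between -0.18 and 0.16 with 1 sample left out. For mir-181b-1, the small difference of LPS from control turned to -0.0088 with RLE scaling, -0.066 with library size alone and -0.0069 with DESeq2, and ranged from -0.023 (without LPS sample 29) to 0.23 with 1 sample left out, and that of THC from control turned to -0.020 with the composition covariate. Where no cause is named it was not tested. The labels give each sample a number of its own and name no pairs or batches. A replicate block made of the sets of consecutive numbers, added after the data were seen, gave the same counts of calls in the family, 1 for LPS pooled and 0 in the other 5 comparisons, and over all rows 30 in place of 28 for LPS pooled. Deviations from the group means correlated within sets with a median r of 0.11, 0.056 and 0.029 (lowest -0.43). Between samples of different sets the median r was -0.029, so the data do not mark the sets as pairs throughout. For single rows the sets did matter. In LPS against control the block lowered the standard error of miR-181a-5p from 0.61 to 0.26, while that of mir-181c went from 0.63 to 0.66 (limma). Depth limits the low rows, as 3 reads correspond to up to 6.38 CPM.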
